A study of Mus musculus with 2 samples.

Results

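The cells described here were the 121 mouse leukaemia cells with the highest share of myeloperoxidase (Mpo) and cathepsin G (Ctsg) RNA among 608 kept cells of a control culture. For each cell the unique molecular identifiers (UMIs, tags that mark single RNA molecules) of Mpo and Ctsg were added and divided by all UMIs of the cell, and the top 20% by this score were taken. They are called the Mpo/Ctsg-high cells and were set against the 121 cells with the lowest score (the bottom 20%), the Mpo/Ctsg-low cells. The other 366 kept cells lay between. With the kept cells of the second library of the study, the series held 1183 kept cells.

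Both cultures were primary mouse leukaemia cells that carried the MLL-AF9 fusion oncogene and the nuclease Cas9. The Renilla culture, which held the cells described here, had a guide RNA (sgRNA) against Renilla luciferase, a control with no target gene in the mouse. The Jumonji culture had an sgRNA aimed at the Jumonji domain of Jmjd1c, a member of a histone demethylase family. Both grew in RPMI medium with serum and 10 ng/ml mouse interleukin-3 (mIL3), a cytokine that sustains myeloid progenitors, and the number of mice, clones or sgRNAs behind each culture is not given in the sources used here.

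Neutrophils and monocytes descend from a shared granulocyte-monocyte progenitor, and MLL-AF9 cells are known to be held near that stage. Primary (azurophil) granules are made early, in promyelocytes, and hold myeloperoxidase, a heme enzyme that makes hypochlorous acid, together with the serine proteases cathepsin G, neutrophil elastase and proteinase 3. These proteins enter the endoplasmic reticulum (ER), where chaperones such as calreticulin and calnexin fold the myeloperoxidase precursor. The transcription factors C/EBP-alpha, PU.1, RUNX1 and MYB are known to drive such genes, and the genes are shut off as secondary granule genes come on.

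Each condition had 1 library, and cells of a culture are not replicates of it. No test was therefore made, nothing below was checked in a replicate, and intervals are exact 95% intervals that cover counting error only. A level is UMIs summed over a group of cells per 1000000 UMIs of that group (CPM), and a ratio is the log2 of the CPM of Mpo/Ctsg-high cells over that of Mpo/Ctsg-low cells. The Mpo/Ctsg-high cells held 2973929 UMIs, with a median of 23382 UMIs (4387 to 55220), 4320 genes and 3.58% mitochondrial UMIs per cell. The Mpo/Ctsg-low cells held 2574002 UMIs, with a median of 21348 UMIs (4648 to 39150), 3981 genes and 3.11% mitochondrial UMIs. The doublet caller Scrublet marked 2 Mpo/Ctsg-high cells, no Mpo/Ctsg-low cell and 10 of all kept cells (1.64%), and these were kept. The 2 libraries shared 0 cell barcodes. Sums cannot tell a higher level in each cell from more cells at a high level, so counts per cell are given beside the main genes.

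The score fell off without a gap, so the line that bounds the Mpo/Ctsg-high cells divides a continuous range of this score. Expressed as CPM of the cell, it reached 5984, with a median of 2567 in Mpo/Ctsg-high cells, 173 in Mpo/Ctsg-low cells and 843 over all kept cells. The last cell taken had 1823 CPM and the first left out had 1801 CPM. Within 10% of that line lay 32 cells, of which 18 were inside and 14 outside. At the other end Mpo/Ctsg-low cells reached 322.6 CPM and the next cell had 322.97 CPM, and 11 cells, all of them Mpo/Ctsg-low, had no UMI of either gene.

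**Figure D1:**
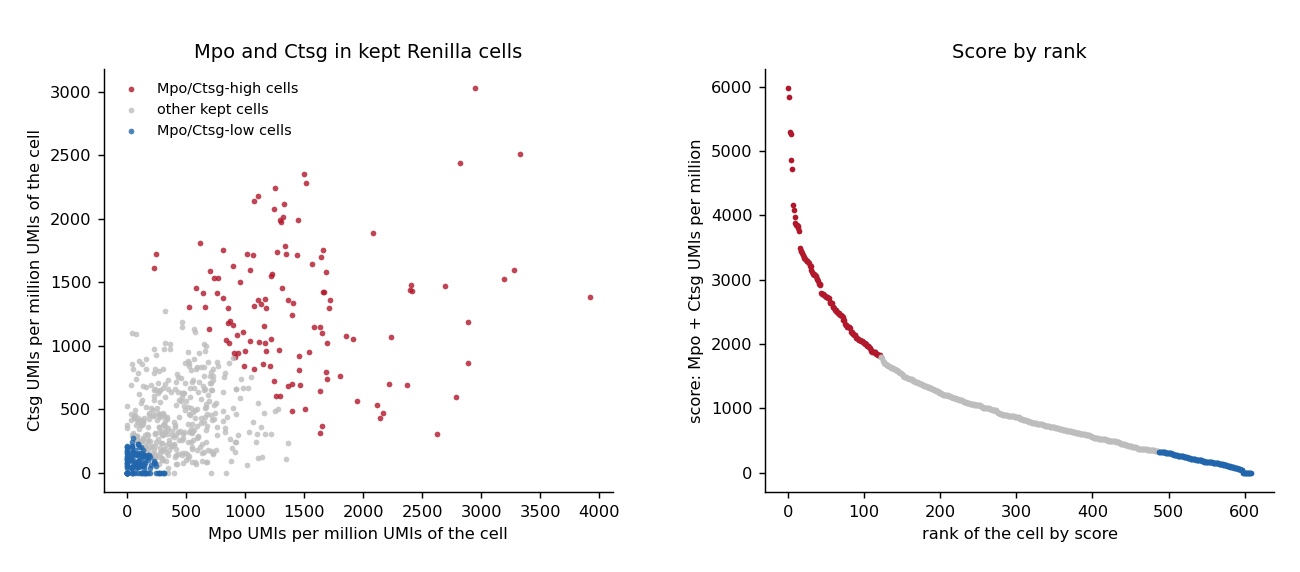
Left, Mpo against Ctsg UMIs of each kept Renilla cell, both per 1000000 UMIs of the cell. Right, the score (Mpo plus Ctsg, in the same unit) of each cell by rank. Red points are the 121 Mpo/Ctsg-high cells, grey the 366 other kept cells and blue the 121 Mpo/Ctsg-low cells. The score declines without a step at the line between 1823 and 1801 CPM.

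Mpo (chromosome 11, 87793581 to 87804413, plus strand) had 4 to 141 UMIs per Mpo/Ctsg-high cell, with a median of 29, against 0 to 8 with a median of 1 per Mpo/Ctsg-low cell. Its level was 1506 CPM in Mpo/Ctsg-high cells and 92.9 CPM in Mpo/Ctsg-low cells. Ctsg (chromosome 14, 56099881 to 56102574, minus strand) had 4 to 115 UMIs with a median of 27, against 0 to 6 with a median of 1, and 1309 CPM against 90.1 CPM. These values chose the cells and are no finding. Both genes took part in the choice: 61 of the 121 cells had more Mpo than Ctsg UMIs, 55 had more Ctsg and 5 had equal numbers. With Mpo alone 98 of them would have been in the top 20% and with Ctsg alone 94, while 71 were in both. The Mpo/Ctsg-high cells held 51.2% of the Mpo and 48.2% of the Ctsg UMIs of all kept Renilla cells, against 20.6% of all UMIs.

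Apart from the genes that chose them, the Mpo/Ctsg-high cells differed from the Mpo/Ctsg-low cells in several kinds of genes. RNA of other granule proteases, of several ER chaperones and of many genes for making ribosomes was higher. RNA of maturing neutrophil genes, which lay in few cells, and of several monocyte genes was lower. Against the 122 cells of the middle score bin, the ribosome biogenesis median was 0.17. The monocyte median there was 0.24 over the 9 genes measured against Mpo/Ctsg-low cells. It was -0.044 over the 7 genes with at least 50 UMIs in that comparison. The primary granule, ER folding and neutrophil medians kept their sign there, at 0.45, 0.23 and -1.45. Of 3298 other genes with at least 200 UMIs over Mpo/Ctsg-high and Mpo/Ctsg-low cells, 348 were at least 1.5-fold higher (10.6%) and 103 at least 1.5-fold lower (3.12%). At 2-fold the counts were 28 and 29. The median ratio was 0.11 over the 7096 genes with at least 50 UMIs, and ratios below are given without removing it. Ribosomal protein genes (81 with enough UMIs, median -0.15) and mitochondrially encoded genes (11, median 0.13) had no member past 1.5-fold. For gene lists a minimum of 50 UMIs was used, at which 12.2% of genes were 1.5-fold higher and 5.72% were 1.5-fold lower. The lists were chosen with earlier results of these data known, so their counts describe these cells and test nothing.

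**Figure D2:**
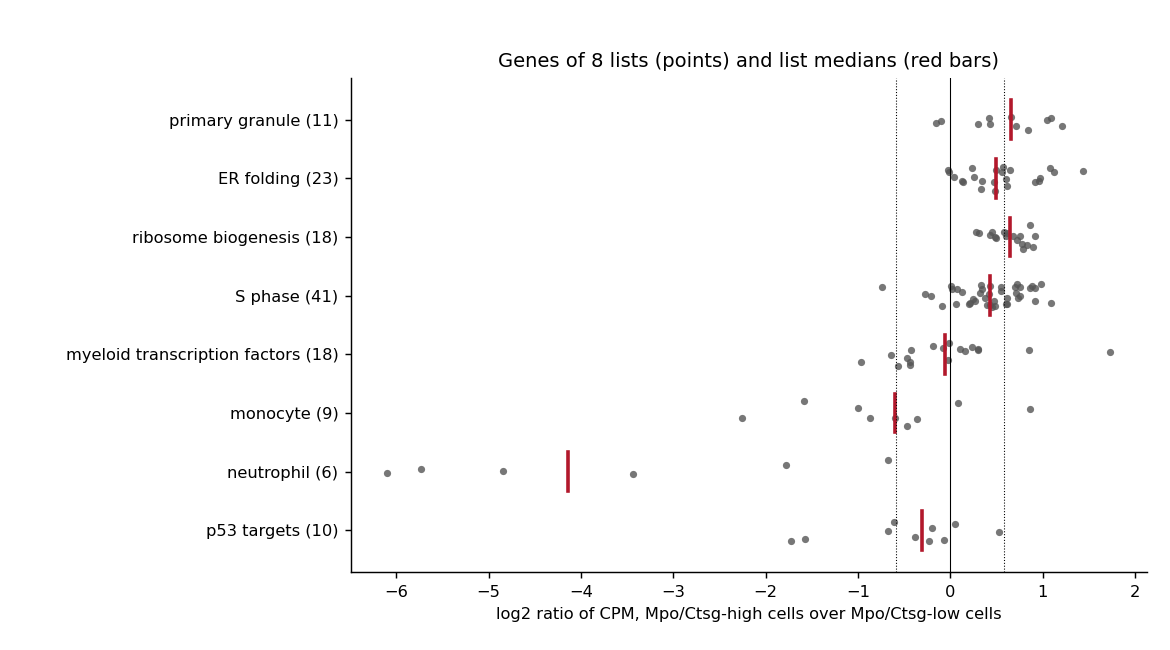
Log2 ratio of CPM, Mpo/Ctsg-high cells over Mpo/Ctsg-low cells, for the measured genes of 8 lists (grey points), with the list median as a red bar and the number of measured genes in brackets. Mpo and Ctsg are left out, and dotted lines mark 1.5-fold. The ribosome biogenesis genes all lie above 0 and the neutrophil genes all below it.

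The label of promyelocyte-like cells was held against 11 promyelocyte markers. Besides Mpo and Ctsg, 8 were measured, and 4 were at least 1.5-fold higher in Mpo/Ctsg-high cells: Elane, Prtn3, Ms4a3 and Cst7. Hp (haptoglobin), at 414 against 279 CPM, Prss57 and Gfi1, a repressor needed for granulocyte formation, had ratios of 0.57, 0.43 and 0.30, all below 1.5-fold. Cebpe, a factor that acts from the promyelocyte stage onward, was lower at -0.65 (-0.77 to -0.52), and Fcnb (ficolin B) had 0 UMIs against 4. Elane was detected in 121 of 121 Mpo/Ctsg-high cells and also in 113 of 121 Mpo/Ctsg-low cells, and Prtn3 in 121 and 120. The groups thus differed in the level of granule RNA more than in its presence, and the cells are named here by their rule alone.

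Most markers of other blood cell types were rare. The summed level of 9 erythroid genes was 3.70 CPM in Mpo/Ctsg-high cells and 10.1 CPM in Mpo/Ctsg-low cells, that of 6 megakaryocyte genes 4.71 and 18.6 CPM, and that of 8 lymphoid genes 2.35 and 1.94 CPM. The lymphoid sum leaves out Nkg7, at 39.0 and 18.3 CPM, which is counted below with the primary granule genes. Among the defining genes, Hbb-bs, Cd3e, H2-Aa, Itgax, Ear1 and Fcer1a had 0 UMIs in both groups. Of the dendritic list only Cst3, H2-DMa and H2-DMb1 were measured, none past 1.5-fold. Prg3 of the eosinophil granule was lower, at 12.8 against 49.3 CPM (-1.95, -2.51 to -1.42), and 3 Mpo/Ctsg-low cells held at least as many of its UMIs there as all the others. Cpa3 of mast cells was lower at -1.65 (-2.38 to -0.97), from 25 and 68 UMIs. Hdc, the other measured gene of the basophil and mast cell list, was not rare, at 87.1 against 105 CPM (-0.27). No cell type in this culture is known to lack Mpo, so a level of free RNA in the droplets could not be read, and its part in the low counts was not tested.

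Neutrophil elastase (Elane, chromosome 10, 79886247 to 79888215, plus strand) was higher in Mpo/Ctsg-high cells, at 2671 against 1153 CPM in Mpo/Ctsg-low cells, a ratio of 1.21 (1.15 to 1.27). Per cell it had 2 to 286 UMIs with a median of 52, against 0 to 111 with a median of 14. Proteinase 3 (Prtn3, chromosome 10, 79874476 to 79883174, plus strand), a neighbour of Elane, had 2329 against 1125 CPM, for a ratio of 1.05 (0.99 to 1.11), with 6 to 149 UMIs per cell (median 53) against 0 to 79 (median 20). For both genes the medians lay well apart while the ranges overlapped. Ms4a3, a membrane protein typical of granulocyte-monocyte progenitors, was at 698 against 427 CPM (0.71, 0.60 to 0.82), with medians of 14 and 5 UMIs per cell.

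Over the 13 genes of the primary granule list, the 11 besides Mpo and Ctsg were all measured. Of these 6 were at least 1.5-fold higher in Mpo/Ctsg-high cells and none was that much lower, with a median ratio of 0.66. Nkg7, a granule membrane protein, was at 39.0 against 18.3 CPM (1.10, 0.59 to 1.62), Serpinb1a, an inhibitor of elastase, proteinase 3 and cathepsin G, at 517 against 288 CPM (0.85, 0.72 to 0.97), and Cst7, a cathepsin inhibitor, at 98.5 against 62.5 CPM (0.66, 0.37 to 0.94). Granule genes without such a difference were the proteoglycan core Srgn at 0.30 (0.24 to 0.35), the granule membrane protein Cd63 at -0.10 (-0.19 to -0.01) and the lysozyme Lyz2 at -0.15 (-0.44 to 0.14). Prss57, a further serine protease of these granules, had few UMIs.

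The promoters of Mpo and of the proteases Ctsg, Elane and Prtn3 are shown because they have a short motif in common. Mpo and Ctsg chose the cells, and Elane and Prtn3 were higher in them. Each line is RefSeq sequence of GRCm38.p6, 250 bases before to 50 after the transcript start, read 5′ to 3′ on the gene's strand. These are chr11:87793534-87793833 (plus) for Mpo, chr14:56102525-56102824 (minus) for Ctsg, chr10:79886062-79886361 (plus) for Elane and chr10:79879417-79879716 (plus) for Prtn3. Capitals mark a PU.1-type motif, GAGGAAG, and in Ctsg also a RUNX motif, ACCACA.
Mpo: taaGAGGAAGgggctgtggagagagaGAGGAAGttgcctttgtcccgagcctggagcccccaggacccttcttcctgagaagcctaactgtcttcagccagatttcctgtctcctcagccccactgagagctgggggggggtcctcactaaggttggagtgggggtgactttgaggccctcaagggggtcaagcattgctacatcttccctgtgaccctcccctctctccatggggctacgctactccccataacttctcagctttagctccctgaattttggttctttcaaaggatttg
Ctsg: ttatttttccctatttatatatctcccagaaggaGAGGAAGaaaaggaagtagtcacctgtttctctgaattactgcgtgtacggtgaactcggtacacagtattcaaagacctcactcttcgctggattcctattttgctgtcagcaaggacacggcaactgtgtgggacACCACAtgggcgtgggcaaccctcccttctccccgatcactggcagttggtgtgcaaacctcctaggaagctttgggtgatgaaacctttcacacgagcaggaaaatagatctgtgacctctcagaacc
Elane: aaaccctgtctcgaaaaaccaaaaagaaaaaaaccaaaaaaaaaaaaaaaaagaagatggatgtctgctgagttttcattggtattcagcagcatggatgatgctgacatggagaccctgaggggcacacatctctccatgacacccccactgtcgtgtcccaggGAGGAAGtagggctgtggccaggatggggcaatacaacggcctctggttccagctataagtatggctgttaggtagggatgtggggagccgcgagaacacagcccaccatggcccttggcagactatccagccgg
Prtn3: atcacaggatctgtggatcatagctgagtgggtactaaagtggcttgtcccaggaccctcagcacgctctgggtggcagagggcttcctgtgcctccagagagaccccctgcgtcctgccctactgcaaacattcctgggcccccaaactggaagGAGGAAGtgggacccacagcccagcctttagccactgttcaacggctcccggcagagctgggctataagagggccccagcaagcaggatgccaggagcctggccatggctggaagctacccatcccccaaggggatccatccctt

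Motifs were searched on both strands, as GAGGAAG for PU.1, TGTGGT for RUNX and TTNNGNAA for C/EBP. Mpo has 2 PU.1 motifs, whose first bases lie 247 and 224 bases before the start, Ctsg has 1 at 216, Elane 1 at 85 and Prtn3 1 at 95. Distances count from the RefSeq transcript start, which for Mpo, Elane and Prtn3 lies downstream of the GENCODE gene start given above. The Prtn3 window lies inside the GENCODE bounds of that gene. None of the 4 windows holds TTNNGNAA, and TGTGGT or its complement occurs only in Ctsg, at 79 bases. GAGGAAG occurs in 13.6% of 32851 mouse promoters of this length and in 6 of the 11 primary granule genes with a sequence, TGTGGT in 16.8% and 5 of 11, and TTNNGNAA in 40.7% and 5 of 11. Ms4a3, whose ratio was also above 1.5-fold, has no PU.1 motif there and 2 of the C/EBP type. A match is a run of letters and not a measured binding site.

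Several genes that fold proteins in the ER were higher. Of 23 measured genes of the ER folding list, 9 were at least 1.5-fold higher in Mpo/Ctsg-high cells and none was that much lower, with a median of 0.50 and 21 above 0, as were 60.6% of all genes with at least 50 UMIs. Hspa5 (BiP, the main ER chaperone of the Hsp70 family, chromosome 2, 34771970 to 34777547, plus strand) had 377 CPM against 139 CPM, for a ratio of 1.44 (1.27 to 1.62). Per cell it had 0 to 44 UMIs with a median of 7, against 0 to 22 with a median of 2. Calreticulin (Calr) was at 1602 against 820.1 CPM (0.97, 0.89 to 1.04), with 7 to 169 UMIs per cell (median 31) against 2 to 84 (median 15). The disulfide isomerases Pdia6 at 275 against 126 CPM (1.13, 0.94 to 1.32) and Pdia3 at 199 against 101 CPM (0.98, 0.76 to 1.19), and Hsp90b1 (GRP94) at 359 against 189.98 CPM (0.92, 0.76 to 1.08), were higher as well. Calnexin (Canx) had a ratio of 0.48, the disulfide isomerase P4hb 0.13, and the translocon and signal peptidase genes Sec61a1 and Spcs1 0.05 and -0.03.

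Promoters of 4 of these chaperones are shown for the ER stress response element (ERSE), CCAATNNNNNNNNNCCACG, a motif known to bind NF-Y and ATF6. They were chosen after their values were seen. The windows are RefSeq sequence of GRCm38.p6 as above, at chr2:34771840-34772139 (plus) for Hspa5, chr12:17266339-17266638 (plus) for Pdia6, chr8:84846882-84847181 (minus) for Calr and chr10:86705395-86705694 (minus) for Hsp90b1. Capitals mark each full ERSE on either strand.
Hspa5: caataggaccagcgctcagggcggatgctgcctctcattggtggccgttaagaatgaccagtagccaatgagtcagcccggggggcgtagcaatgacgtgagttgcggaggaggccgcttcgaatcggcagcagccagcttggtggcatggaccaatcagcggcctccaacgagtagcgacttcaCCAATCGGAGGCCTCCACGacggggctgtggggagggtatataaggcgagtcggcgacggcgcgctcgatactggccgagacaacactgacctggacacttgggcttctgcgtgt
Pdia6: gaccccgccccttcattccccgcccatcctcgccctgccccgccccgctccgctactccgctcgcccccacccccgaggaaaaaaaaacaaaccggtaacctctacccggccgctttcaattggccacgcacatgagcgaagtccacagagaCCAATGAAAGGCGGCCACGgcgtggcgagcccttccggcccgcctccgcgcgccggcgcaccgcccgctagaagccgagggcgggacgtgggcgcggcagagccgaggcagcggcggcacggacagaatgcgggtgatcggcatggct
Calr: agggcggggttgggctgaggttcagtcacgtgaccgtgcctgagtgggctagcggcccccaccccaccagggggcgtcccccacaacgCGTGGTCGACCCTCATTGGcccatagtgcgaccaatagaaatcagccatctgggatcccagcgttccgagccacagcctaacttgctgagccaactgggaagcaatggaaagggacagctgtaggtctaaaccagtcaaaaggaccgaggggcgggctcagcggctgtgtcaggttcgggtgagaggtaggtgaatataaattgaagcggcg
Hsp90b1: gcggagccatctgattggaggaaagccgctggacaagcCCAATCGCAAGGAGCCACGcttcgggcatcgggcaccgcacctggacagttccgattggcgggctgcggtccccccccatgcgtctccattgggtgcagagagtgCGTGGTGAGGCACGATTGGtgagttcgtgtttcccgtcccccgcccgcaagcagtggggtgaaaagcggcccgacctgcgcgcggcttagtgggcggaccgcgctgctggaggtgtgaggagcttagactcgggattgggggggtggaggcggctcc

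Distances are again from the RefSeq transcript start, and the Hspa5 start and element both lie inside the GENCODE gene bounds given above. The element begins 65 bases before the start in Hspa5, 98 in Pdia6, 162 in Calr (on the other strand), and 212 and 107 (on the other strand) in Hsp90b1. It occurs in 39 of 32851 promoters of this length (0.119%) and in 6 of the 20 ER folding genes with a sequence, the other two being Canx and Creld2. Canx, at 0.48, and Creld2, at 0.14, hold the element and were not past 1.5-fold, while Pdia3 and Pdia4 were past it and hold none in this window. Of the unfolded protein and ATF4 response genes, Asns (asparagine synthetase) and Phgdh (the first enzyme of serine synthesis) were 1.5-fold higher at 0.82 and 0.97. So was Chac1 at 0.72, from 40 and 21 UMIs. Sesn2 was lower at -0.67 (-1.41 to 0.05), and Ddit3 and Trib3 had ratios of 0.42 and -0.44. In this list of 10 measured genes 3 were past 1.5-fold upward and 1 downward, with a median of 0.40.

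Most of the measured ribosome biogenesis genes were higher. Of 18 measured ribosome biogenesis genes, 12 were at least 1.5-fold higher and none lower, with a median of 0.65 and all 18 above 0, against 60.6% of all genes. Nucleolin (Ncl), which acts in ribosomal RNA transcription and processing, had 2 to 71 UMIs per Mpo/Ctsg-high cell (median 15) against 0 to 32 (median 8) per Mpo/Ctsg-low cell. Its level was 773 against 425 CPM (0.86, 0.76 to 0.97). Nolc1 and Mrto4, which also work in the nucleolus, were at 0.90 (0.69 to 1.11) and 0.92 (0.64 to 1.20), and Npm1 at 0.28 (0.22 to 0.34). The ribosome assembly genes Wdr18 and Wdr74 were among the genes picked by size, at 1.17 (0.82 to 1.54) and 1.12 (0.80 to 1.45). So were Umps, which completes pyrimidine synthesis, at 1.16 (0.87 to 1.47), the cytosolic chaperone Hsp90aa1 at 0.94 (0.85 to 1.03), Phgdh, and Cct3 at 1.01 (0.83 to 1.20). Myc, known to drive such genes, was at 49.8 against 32.6 CPM (0.61, 0.21 to 1.01).

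Cct3 and several of these enzymes led to 4 further families, chosen after the leading genes were seen. Of 7 measured subunits of the CCT chaperonin, which folds actin and tubulin, 3 were 1.5-fold higher (median 0.37), and Cct2 had a ratio of -0.03. Of 31 proteasome subunits 9 were 1.5-fold higher (median 0.53) and all had ratios above 0, against 60.6% of all genes, with Psmd6 at 0.98 (0.71 to 1.25). Of 20 cytosolic tRNA synthetases, 10 were 1.5-fold higher (median 0.63), with Rars at 1.09 (0.73 to 1.46), and Qars alone was below 0, at -0.28 (-0.53 to -0.03). Of 9 mitochondrial chaperone and import genes, 6 were 1.5-fold higher (median 0.61), with Hspd1, the mitochondrial chaperonin, at 0.89 (0.75 to 1.04). No gene of the 4 families was 1.5-fold lower. At this minimum 12.2% of all genes were 1.5-fold higher, and genes that led to the families, such as Cct3, are counted in them. Against the middle score bin the family medians were 0.29, 0.24, 0.23 and 0.17, in the order given.

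The other genes picked by size had mixed functions. Hpgd, which inactivates prostaglandins, was at 294 against 112 CPM (1.39, 1.20 to 1.59). It was detected in 104 of 121 Mpo/Ctsg-high cells, with a median of 5 UMIs and at most 36, and in 57 of 121 Mpo/Ctsg-low cells, with a median of 0 and at most 26. Gstm1, a glutathione transferase, was at 205 against 98.3 CPM (1.06, 0.85 to 1.28), with medians of 4 and 2 UMIs per cell. Bzw2 was at 113 against 48.6 CPM (1.21, 0.91 to 1.52). Glycolysis genes differed little: of 15 measured only Ldha, at 0.61 (0.52 to 0.70), was past 1.5-fold, with a median of 0.18. Of 8 measured heme synthesis genes, which supply the cofactor of myeloperoxidase, Urod was higher at 0.65 (0.23 to 1.08) and Ppox lower at -0.67 (-1.49 to 0.14), and the median was 0.07.

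Of C/EBP-alpha, PU.1, RUNX1 and MYB, known for granule genes, the first alone was past 1.5-fold. Cebpa, which encodes C/EBP-alpha, had 100 UMIs in Mpo/Ctsg-high cells and 26 in Mpo/Ctsg-low cells, or 33.6 against 10.1 CPM, a ratio of 1.74 (1.10 to 2.42). At least 1 UMI was seen in 57 of 121 cells, with at most 7, against 24 of 121 with at most 2, so most cells of either kind had 0 or few. Spi1, which encodes PU.1, was at 334 against 496 CPM (-0.57, -0.69 to -0.45), short of 1.5-fold, and Cebpe was at 320.5 against 501 CPM. Gata2, a factor of early progenitors and mast cells, was lower at -0.97 (-1.55 to -0.41), and Runx1 had a ratio of -0.43. Myb, at 216 against 176 CPM (0.30, 0.12 to 0.47), was above 0 and short of 1.5-fold. In all, 2 of 18 measured factors were 1.5-fold higher, the second being Stat5a with 46 and 22 UMIs, and 2 were lower, with a median of -0.05.

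Genes of the MLL-AF9 programme had mostly small ratios. Of 17 measured, Myc and Bcl2 were 1.5-fold higher and Hoxa5 1.5-fold lower, at -0.59 (-1.15 to -0.03), and the list median was -0.27. Meis1 and Hoxa9, cofactors of this leukaemia, had ratios of -0.27 and -0.28. Jmjd1c, the gene targeted in the other culture, was at 125 against 162 CPM (-0.38, -0.59 to -0.18), short of 1.5-fold. The progenitor marker Cd34 was lower, at 269 against 446 CPM (-0.73, -0.86 to -0.60), and Sox4 was higher at 0.98 (0.39 to 1.60), from 80 and 35 UMIs. Of 9 measured cytokine receptors, only Csf2rb was past the line, lower at -0.74 (-1.15 to -0.35). It encodes a beta chain that the IL-3 receptor shares with other cytokine receptors. Cish, a feedback inhibitor induced through STAT5, was lower at -1.29 (-1.79 to -0.80) from 53 and 112 UMIs.

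The lower genes were led by those of maturing neutrophils. All 6 measured neutrophil genes were at least 1.5-fold lower, with a median of -4.14, and the other 13 of the list were below the count minimum, among them Ltf with 0 UMIs in both groups. S100a9, one chain of calprotectin, was at 4.71 against 135 CPM (-4.84, -5.73 to -4.07), and Ngp, of secondary granules, at 1.68 against 89.4 CPM (-5.73, -7.37 to -4.49). These differences lay in few cells. Ngp was seen in 3 of 121 Mpo/Ctsg-high cells, with at most 3 UMIs, and in 9 of 121 Mpo/Ctsg-low cells, 1 of which had 160 of the 230 UMIs. Stfa1, BC100530 and Gm5483, which lie close together on chromosome 16, were lower at -3.48, -3.63 and -5.06, and UMIs of neighbouring near-identical genes can be split between them.

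Summed over S100a8, S100a9, Ngp, Stfa1, BC100530 and Gm5483, 3 Mpo/Ctsg-high cells and 25 Mpo/Ctsg-low cells had 5 UMIs or more. The Mpo/Ctsg-high cells had 259 such UMIs, a median of 0 per cell and at most 166, and Mpo/Ctsg-low cells had 3437, a median of 1 and at most 862. Just 10 of the Mpo/Ctsg-low cells held 2990 of their UMIs. Without the cells of 5 UMIs or more, a check added after the counts had been seen, S100a9 and Ngp were left with 9 and 3 UMIs in all. The cells were removed by these genes, so the loss of the difference follows from the filter.

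Among other lower genes, Cd33 and Tmsb4x also differed in their medians per cell. Cd33, an inhibitory receptor of myeloid cells, was at 46.1 against 262 CPM (-2.51, -2.78 to -2.24), with 0 to 10 UMIs per cell (median 1) against 0 to 37 (median 3). Tmsb4x, the actin-binding thymosin beta-4, was at 3107 against 6884 CPM (-1.15, -1.18 to -1.11), with medians of 62 and 125 UMIs per cell. Cd52, a small glycoprotein of leukocytes, was lower at -1.96 (-2.24 to -1.69), the lysosomal protease Ctsh at -1.92 (-2.30 to -1.55) and the glutathione transferase Mgst1 at -1.32 (-1.56 to -1.08). Cdkn1a, which encodes the cell cycle inhibitor p21, was at 39.7 against 131 CPM (-1.72, -2.04 to -1.42), with medians of 1 and 1 UMI per cell and at most 8 and 46. Of 10 measured p53 targets 4 were lower and none higher, Cdkn1a among them, with a median of -0.30.

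Monocyte genes were mixed. Of 9 measured, 5 were at least 1.5-fold lower and 1 higher, with a median of -0.60. Lgals3 (galectin-3) was lower at -1.59 (-1.93 to -1.26) and Adgre1 (F4/80) at -1.001 (-1.38 to -0.63). Ly6c2, a surface protein of monocytes and their precursors, was at 396 against 510.5 CPM (-0.37, -0.48 to -0.25), and the chemokine receptor Ccr2 was higher at 0.87 (0.39 to 1.36), from 116 and 55 UMIs. Wfdc17 was lower at -2.26 (-2.98 to -1.59), but 1 Mpo/Ctsg-low cell held 38 of the 95 UMIs there. Csf1r, the defining receptor, had 2 UMIs against 10, and Cx3cr1 and Fn1 had 0 in both groups.

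A smaller share of Mpo/Ctsg-high cells was called in G1, and some S phase genes were higher. Of 41 measured S phase genes, 15 were 1.5-fold higher and 1 lower, with a median of 0.43, while 53 G2/M genes had a median of 0.05 with 5 higher. The phase calls below were made from these same S phase and G2/M lists, so the calls and the ratios are not separate results. With each cell thinned to 10000 UMIs, 6 of 116 Mpo/Ctsg-high cells were called in G1 (5.17%, 1.92% to 10.9%) and 26 of 111 Mpo/Ctsg-low cells (23.4%, 15.9% to 32.4%). S calls made up 58.6% (49.1% to 67.7%) against 34.2% (25.5% to 43.8%), and G2/M calls 36.2% against 42.3%. Unthinned, the G1 shares were 9.09% and 24.8%. Among thinned Mpo/Ctsg-low cells with fewer than 5 UMIs of the maturing genes, 20 of 87 (23.0%) were called in G1. Scores of 6 Mpo/Ctsg-high and 12 Mpo/Ctsg-low cells lay within 0.05 of the line to G1. Over 5 bins of 20% of the cells each, from low to high score, the G1 share was 23.4%, 4.31%, 7.69%, 8.40% and 5.17%, so the lowest bin, the Mpo/Ctsg-low cells, stood apart. Calls of this kind do not measure how fast cells divide, and the part of free RNA in them was not tested.

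**Figure D3:**
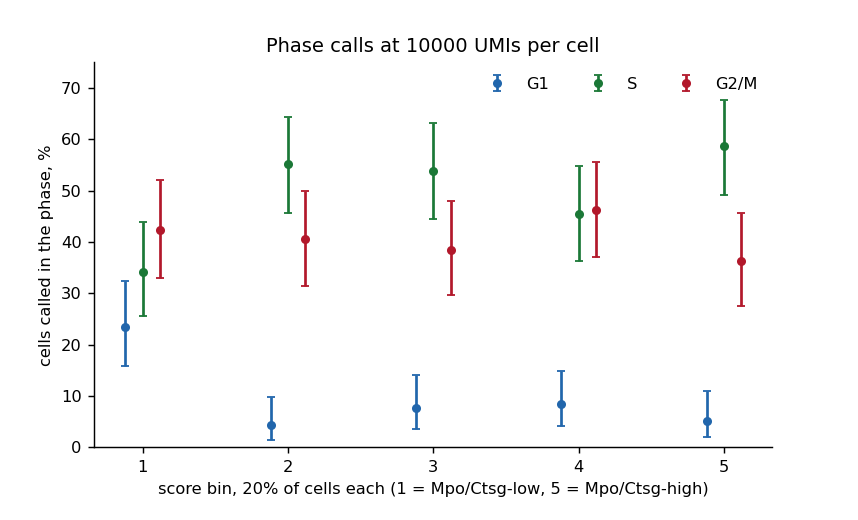
Percent of cells called in G1 (blue), S (green) and G2/M (red) in each of 5 score bins of the kept Renilla cells, from 1 (Mpo/Ctsg-low) to 5 (Mpo/Ctsg-high), with cells thinned to 10000 UMIs. Bars are exact 95% binomial intervals and cover counting error only. The G1 share was 23.4% in bin 1 and between 4.31% and 8.40% in the others.

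Set against the middle score bin of 122 cells, a comparison added after the results above were seen, the Mpo/Ctsg-high cells differed in far fewer genes. Of 3511 genes 26 were at least 1.5-fold higher (0.741%) and 13 at least 1.5-fold lower (0.37%). The 348 genes higher than in Mpo/Ctsg-low cells had a median ratio of 0.73 there and 0.25 against the middle bin, and the 103 lower ones -0.75 and -0.35. Several genes that act in the ER were among the 26: Hsp90b1 at 0.81 (0.66 to 0.96), Hspa5 at 0.80 (0.65 to 0.94), Pdia6 at 0.69 (0.52 to 0.85), Pdia4 at 0.66 (0.36 to 0.96) and Pdia3 at 0.62 (0.43 to 0.81), with Stt3a, which adds sugars to new proteins in the ER, and Erp44 both at 0.61. In the ER folding list 6 of 23 were past 1.5-fold, with a median of 0.23. The primary granule median was 0.45, the ribosome biogenesis median 0.17 and the S phase median 0.02, with 0 of 41 S phase genes past 1.5-fold in either direction. The 9 monocyte genes measured against Mpo/Ctsg-low cells had a median of 0.24, with 2 higher and 1 lower. One of the higher genes was Wfdc17, from 23 and 12 UMIs. Over the 7 monocyte genes with at least 50 UMIs in this comparison the median was -0.044, so its sign depended on the genes counted. On the lower side Stfa1 at -2.13, S100a8 at -1.49, Cd33 at -1.27 (-1.57 to -0.98) and Cdkn1a at -0.99 (-1.32 to -0.67) were past the line. Some genes 1.5-fold lower than in Mpo/Ctsg-low cells differed little from the middle bin: Cish at -0.056, Csf2rb at -0.11, Adgre1 at -0.044 and Cpa3 at -0.14.

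Across the 5 score bins from low to high, Hspa5 was at 139, 185, 217, 268 and 377 CPM. Calr was at 820.1, 970.2, 1080, 1277 and 1602 CPM, and Ncl at 425, 521, 604, 691 and 773 CPM. These genes climbed at each step. Elane, at 1153, 1450, 1817, 1675 and 2671 CPM, and Hsp90b1, at 189.98, 191, 205, 230.5 and 359 CPM, had their largest step into the highest bin, as did Hspa5 and Calr, and Hsp90b1 also climbed at each step. Cd33 declined at each step, at 262, 163, 111, 78.4 and 46.1 CPM, while S100a8 was at 200.1, 50.8, 51.8, 18.0 and 18.5 CPM and so dropped mainly after the lowest bin. Cebpa was at 10.1, 13.6, 16.5, 22.7 and 33.6 CPM and Cebpe at 501, 452, 409, 300.4 and 320.5 CPM. Of the 348 higher genes 155 (44.5%) climbed at each step, against 352 of all 3298 (10.7%), a share that the choice of the end groups itself raises. The median mitochondrial share was 3.11%, 3.31%, 3.45%, 3.60% and 3.58% over the same bins, and its part in these gradients was not tested.

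**Figure D4:**
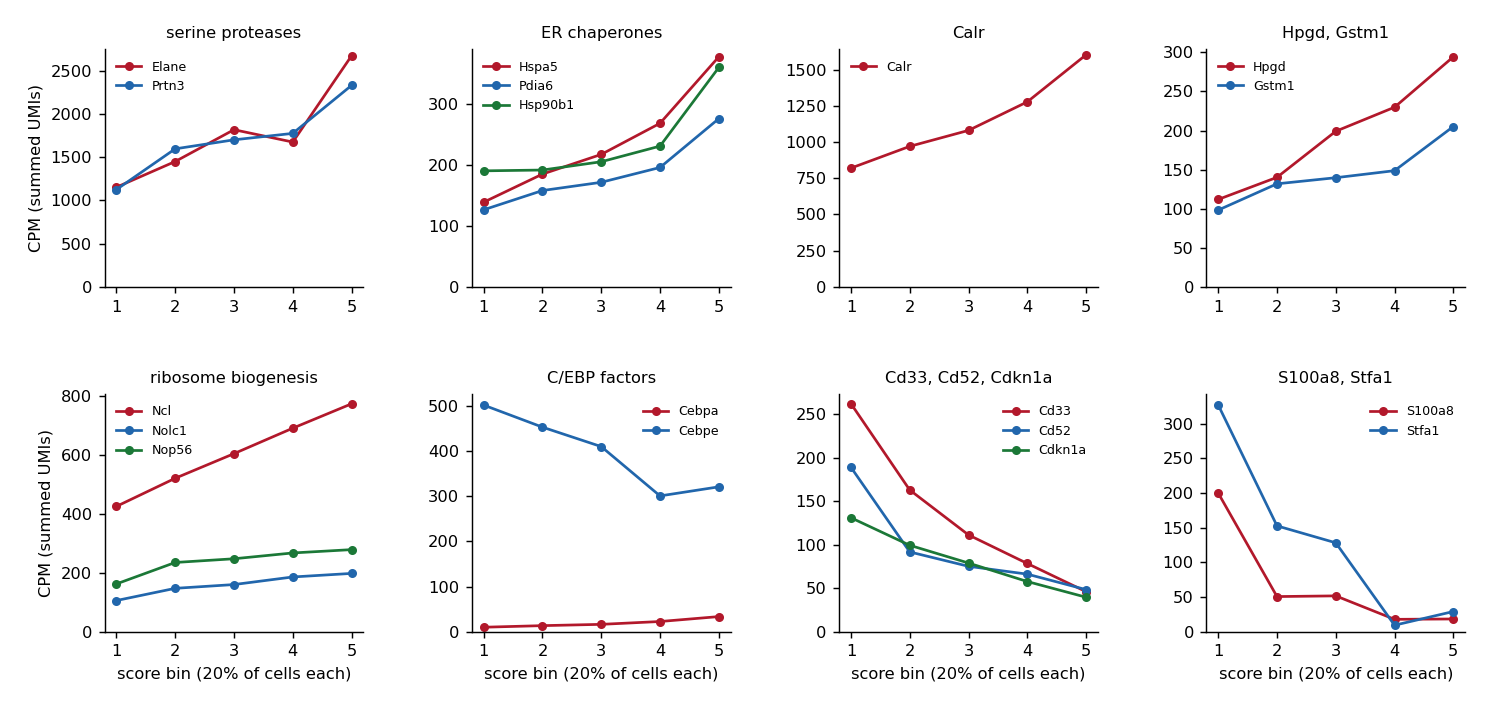
Summed CPM of selected genes in each of 5 score bins of the kept Renilla cells, from 1 (Mpo/Ctsg-low) to 5 (Mpo/Ctsg-high), in 8 panels by function with axes that start at 0. Hspa5, Calr and Ncl climb at every step, Cd33 declines at every step, and S100a8 drops mainly between bins 1 and 2.

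The genes whose level followed the score most closely were named by Pearson's r over 20 bins of kept cells ordered by score, as a description, since the bins share 1 library. They were Hspa5 (0.955), Pdia6 (0.953), Calr (0.939), the proteasome subunit Psmd6 (0.934) and the mitochondrial ADP/ATP carrier Slc25a5 (0.925). Single cells followed it less closely. Of the 121 Mpo/Ctsg-high cells, 54 were also in the top 20% of kept cells by their Calr share, 53 by Hspa5, 50 by Prtn3, 48 by Elane, 40 by Hpgd and 30 by Ms4a3. For the same genes in this order, 6, 5, 6, 12, 12 and 17 of the 121 Mpo/Ctsg-low cells were in that top 20%. A group of cells picked at random would have about 20% of its cells there, and the 30 of 121 for Ms4a3 were not far above that. Within the Mpo/Ctsg-high cells, the ratio of the 90th to the 10th percentile of the share was 8.80 for Elane, 6.98 for Hspa5 and 4.42 for Ms4a3. It was 2.85 for Prtn3 and 2.74 for Calr. These ratios include the counting error of single cells, which was not separated from differences between cells.

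The same score was then applied to the Jumonji library, whose cells the rule did not use. Of its 575 kept cells, 5 (0.870%, 0.283% to 2.02%) reached the Renilla line of 1823 CPM, and 290 had no UMI of either gene. Its top 20%, 115 cells, began at 135 CPM, with a median of 338, so it held far lower levels than the Mpo/Ctsg-high Renilla cells. Its lowest 20% was 115 of the cells at 0, taken in file order. Median depth was 26404 UMIs in the top 20% and 17731 in the lowest 20%, so the split by score also split by depth.

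Of the 296 Renilla-higher genes with enough UMIs in both libraries, 118 (39.9%) were also at least 1.5-fold higher in the Jumonji top 20%, against 7.84% of all 3012 genes, and 284 (95.9%) had the same sign, against 62.8% of all genes above 0. Of the 100 lower genes 47 (47.0%) were also lower, against 3.19%. The shared genes made up 50% of the 236 genes called higher in the Jumonji library and 49.0% of the 96 called lower there. None of these genes was past 1.5-fold in opposite directions. With Jumonji cells thinned to 10000 UMIs, 24.2% of 99 Renilla-higher genes and 32.8% of 61 Renilla-lower genes were past 1.5-fold in both, against 3.41% higher and 2.52% lower of 1467 genes in thinned Jumonji cells.

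Ms4a3 and the proteases Elane and Prtn3 also differed in the Jumonji library. Ms4a3 was at 319 CPM in its top 20% and 90.6 CPM in its lowest 20% (1.82, 1.59 to 2.05), Elane at 1302 and 430.1 CPM (1.60, 1.49 to 1.70) and Prtn3 at 1204 and 529.6 CPM (1.18, 1.09 to 1.28). The ER chaperones differed less: Hspa5 was at 295 and 174 CPM (0.76, 0.59 to 0.94), Calr at 1277 and 950.3 CPM (0.43, 0.35 to 0.50), and Hsp90b1 and Pdia3 had ratios of 0.18 (0.03 to 0.34) and 0.08 (-0.11 to 0.27). In lists, at least 1.5-fold higher were 2 of 23 ER folding genes (median 0.20), 12 of 17 ribosome biogenesis genes (0.73) and 4 of 11 primary granule genes (0.02), against 9.7% of all genes higher and 6.05% lower at this minimum. Cebpa was again higher, at 1.07 (0.25 to 1.95), with 16.8 and 8.02 CPM.

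Among the lower genes Lgals3 was at 150.4 CPM in the Jumonji top 20% and 626 CPM in its lowest 20% (-2.06, -2.21 to -1.90), and Cd33 at 167 and 311 CPM (-0.90, -1.07 to -0.73). Stfa1 and BC100530, far lower in Mpo/Ctsg-high cells, had ratios of 0.31 (0.14 to 0.48) and 0.22 (0.10 to 0.34) there. Ccr2, below the 200 UMIs needed for the counts above, was 1.5-fold higher in Mpo/Ctsg-high Renilla cells (0.87) and lower in the Jumonji top 20% (-1.08, -1.84 to -0.34). No difference between the 2 libraries in these ratios was tested.

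**Figure D5:**
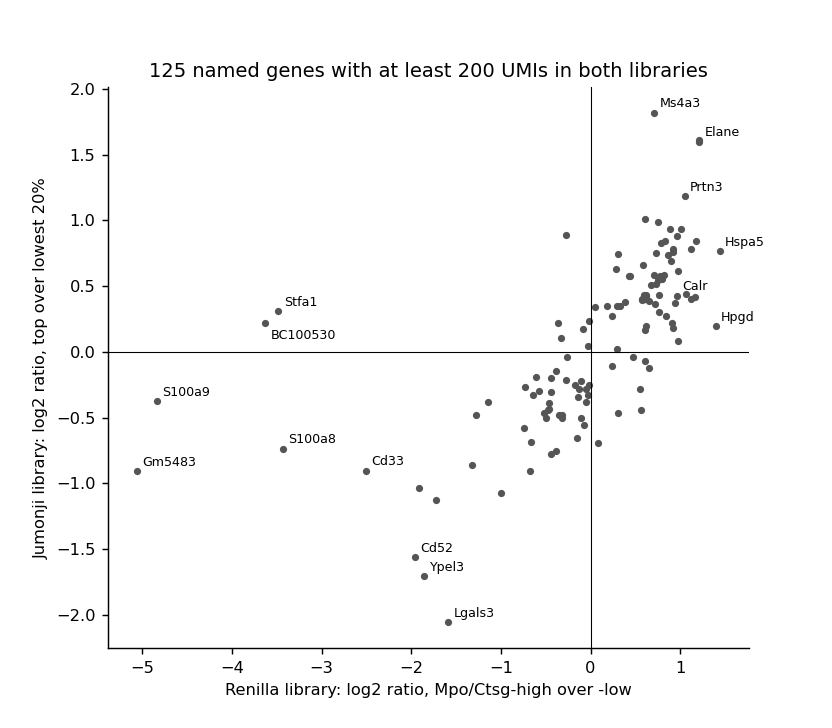
Log2 ratio of CPM, top over lowest 20% by score, in the Renilla library (x axis) and the Jumonji library (y axis), for 125 named genes with at least 200 UMIs in both libraries. Each point is 1 gene and some are labelled. Most points lie in the quadrants of equal sign, and Stfa1 and BC100530 lie below 0 in Renilla and above 0 in Jumonji.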

How the data were processed

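Single-cell RNA was measured in 1 Renilla and 1 Jumonji library. Per the labels' protocols both were made with the 10x Genomics Chromium Single Cell 3′ kit (v2), and Cell Ranger 1.3.1 and build mm10 are named per the submitters' processing notes. The authors deposited raw UMI counts per gene and barcode (651 Renilla and 652 Jumonji barcodes, 27998 gene identifiers). Neither the annotation release nor how cells were called is stated in the sources used here.

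Of these, 608 and 575 barcodes had 500 genes or more and a mitochondrial share of 10% or less. All 43 excluded Renilla barcodes failed by their mitochondrial share. Counts were summed over cells and divided by the group's total (CPM). Ratios carry exact conditional Poisson intervals and shares exact Clopper-Pearson intervals at 95%, both for counting error only, and a count of 0 was set to 3 in ratios. No test between conditions or score bins was made. Genes were called by size alone, at 1.5-fold and 200 UMIs over both groups, without Mpo and Ctsg. The text draws on the 15 higher and 15 lower genes whose interval lay farthest from 0 and on up to 3 genes at each end of each list. It adds the genes of the rule, the 5 likest genes and Jmjd1c. Not every gene so picked is described above, and Ypel3 (-1.86) and Cd24a (-1.28) were also lower in Mpo/Ctsg-high cells. Genes named outside this rule, the 4 families, the ERSE promoters, the middle score bin, the cells with maturing genes and 2 Jumonji settings were chosen after values had been seen. The cells and the 29 lists (437 genes) were chosen with earlier results of these data known. Phases were called and doublets marked with scanpy 1.11.5, phases after thinning cells to 10000 UMIs, which left out 5 Mpo/Ctsg-high cells and 10 Mpo/Ctsg-low cells. Coordinates are from GENCODE M21 (GRCm38, 1-based), which holds 27722 of the identifiers, and 56 symbols shared by several identifiers were kept apart. Scripts were tested on simulated data. Alternatives changed the score, the size of the end groups, the reference cells, depth, cell filters, weights and minimums.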

Additional observations from a re-analysis of the deposited data

Results flagged for a closer look

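The 43 Renilla barcodes above 10% mitochondrial UMIs entered no comparison, yet they stood out by the score that chose the Mpo/Ctsg-high cells. Their median score was 3056 Mpo and Ctsg UMIs per 1000000 UMIs, with a range of 0 to 48423, against 843 over kept cells, and 26 of them (60.5%, 44.4% to 75.02%) were at or above the line of the Mpo/Ctsg-high cells. Their median depth was 5694 UMIs and their median mitochondrial share 15.7%, and the 26 high ones had 4946 UMIs and 22.1% against 6610 UMIs and 11.4% in the rest. They held 1.72% of the UMIs of the library and 11.8% of its Mpo UMIs. The ER chaperones went with Mpo there: Hspa5 was at 1417 CPM (1274 to 1572) in these barcodes and 239.5 CPM in kept cells, Calr at 3923 (3683 to 4176) and 1159 CPM, and Pdia6 at 942 (826 to 1070) and 187 CPM. Elane, at 1667 (1511 to 1834) and 1769 CPM, and Prtn3, at 1429 (1286 to 1585) and 1721 CPM, did not. With the mitochondrial limit lowered to 5%, the median of the ER folding list between Mpo/Ctsg-high cells and Mpo/Ctsg-low cells was 0.57, against 0.50 at 10%. With all deposited barcodes ranked, these 43 included, it was 0.63. The part of damaged cells in the score was not tested.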

How the results depend on the processing

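The 348 higher and 103 lower genes of the Mpo/Ctsg-high cells against Mpo/Ctsg-low cells changed with the cells they were set against, the fold required and the minimum count. The higher count was 58 against all other kept cells, 26 against the middle score bin, 228 with the score from Mpo alone and 142 with cells thinned to 10000 UMIs, which leaves fewer genes to test, and at 2-fold it was 28. At minimums of 1, 100 and 500 UMIs it was 2412, 601 and 123. The lower count was 13 against the middle score bin, 56 in thinned cells and 29 at 2-fold, and at the same minimums 2300, 211 and 39. The medians of the primary granule, neutrophil, monocyte, ER folding, ribosome biogenesis and S phase lists kept their direction under every setting run, each over the genes that had enough UMIs in that setting. Over the genes measured against Mpo/Ctsg-low cells, the medians of 5 lists had the opposite sign against the middle score bin: monocyte (0.24), cytokine receptors (0.11), heme synthesis (-0.20), dendritic (0.039) and progenitor (0.090). The primary granule median was 0.97 with the top and bottom 10%, the neutrophil median was -6.61 with the top and bottom 10%, -2.04 and -5.14 with the score from Mpo or Ctsg alone, -2.20 against all other cells, -1.06 against the middle score bin and -1.54 at a minimum of 1 UMI, and it had no value without the cells with maturing genes. Against the middle score bin the medians over the genes with enough UMIs there were -0.044 (monocyte, 7 genes), 0.22 (ER folding, 24 genes), 0.17 (ribosome biogenesis) and 0.023 (S phase). Against all other cells ER folding was at 0.25 and ribosome biogenesis at 0.23, which was 1.09 with the top and bottom 10%. The cause of these shifts was not tested. The share of higher genes that were also higher in the Jumonji library, and that of lower genes, was 57.9% and 69.9% when the 5 Jumonji cells above the Renilla line were set against 290 at 0, where 18.8% of all genes were called higher and 23.1% lower, against 7.41% and 4.92% of 3211 genes between its top and lowest 20%. In thinned cells it was 24.2% and 32.8%. The G1 share of Mpo/Ctsg-high cells stayed between 4.67% and 9.09%.

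Of 110 named genes past 1.5-fold against Mpo/Ctsg-low cells, 102 kept their sign against the middle score bin. Those that changed sign were Bcl2 (-0.15), Cdca7 (-0.047), Ccne2 (-0.12), Stat5a (-0.29), Myc (-0.029), Hells (-0.0086), Cd68 (0.28) and Wfdc17 (0.91). Some genes short of 1.5-fold changed sign as well, among them Meis1 (0.090), Lyz2 (0.20), Cd63 (0.17) and Sec61a1 (-0.035). Ppox was at 0.28 with the top and bottom 10% and 0.23 with Mpo alone. Without cells with maturing genes S100a9 was at 0.11 and Ngp at 0.79, from 9 and 3 UMIs. No paired analysis was possible because each condition had 1 library. Ranking cells within bins of depth or phases, weighting cells equally, lowering the mitochondrial limit to 5%, and leaving out doublet-marked cells or the 12 highest cells kept both counts within 1.5-fold. Of these, ranking within phases shared the fewest genes, 263 of the 348 and 77 of the 103. The top and bottom 10% gave 406 higher genes, 155 of them among the 348. Against all other kept cells 84 were lower, 21 of them among the 103. Of the 110 named genes 38 stayed past 1.5-fold there, and 29 against the middle score bin. Counts of a few UMIs per cell limit what can be said of single cells and of genes such as Cebpa.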
